A study of Mus musculus with 12 samples.

Results

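The 7 genes examined here encode 6 myeloid surface receptors (Trem2, Clec7a, Itgam, Lilrb4a, Cd33 and Cd84) and the adaptor of the first, Tyrobp. They were chosen by name, as activating and inhibitory receptors of microglia and macrophages, from the 757 endogenous genes of the nCounter Glial Profiling Panel, which counts barcoded probes bound to a fixed set of transcripts. The choice was made with earlier results of these data known. Whole brain RNA came from 12 individual male C57BL/6 mice in 3 groups of 4. Floxed mice (CD73flox, the controls) had sham surgery or transient middle cerebral artery occlusion (tMCAO), and CD73ko mice had tMCAO. The occlusion lasted 50 min, after which the vessel was reopened, and brains were taken 3 days after surgery. CD73, encoded by Nt5e, is a surface enzyme that makes adenosine from extracellular AMP. How the CD73ko allele was made, and whether any Cre was present in the floxed mice, was not given in the sources used here. CD73ko mice with sham surgery were not analysed here, so the response to tMCAO within that genotype could not be estimated, and Nt5e was not among the genes counted.

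Many receptors of this kind carry no signalling domain of their own. TREM2, a receptor for lipids and lipoproteins, pairs with the adaptor TYROBP (DAP12), whose immunoreceptor tyrosine-based activation motif (ITAM) recruits the kinase SYK when it is phosphorylated. Dectin-1, encoded by Clec7a, binds beta-glucans and signals through a related motif in its own tail. Receptors with an inhibitory motif (ITIM), such as that encoded by Lilrb4a, recruit phosphatases and damp these signals. In the brain such receptors are known from microglia and macrophages, where TREM2 and TYROBP are needed for the phagocytic state that microglia take on around damage.

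Total counts lay between 724655 and 848853 over the genes of 11 libraries. The twelfth library, flox sham replicate 4, had 293589. A further library stood apart in composition: in flox tMCAO replicate 3, 11 of 11 measured microglia markers were at their lowest of the 4 floxed tMCAO mice, with a summed normalised count of 3466 against 4572 to 6048 in the other 3, and 4 of 5 oligodendrocyte markers were lowest too (summed 13022 against 20293 to 21798). The tests of the 7 genes and the differences between them are also given without these libraries, a setting chosen after seeing the data. All 7 genes exceeded the background of the negative control probes (their mean plus 2 SD) in all 12 mice, except Clec7a, which fell short of it in 2 of the 4 shams. Probes differ in efficiency, so levels are compared between mice and not between genes.

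The start regions of 5 of the 7 genes were at hand (RefSeq, GRCm38.p6, 250 bases before to 50 after an annotated start), and they are shown because these genes rose together. They were searched on both strands for GAGGAA, the core of the sites bound by the myeloid transcription factor PU.1. All 5 windows held it, as did 28.3% of the windows of 27025 genes and 29.9% of those of 558 panel genes. A match of 6 bases is a description of the letters and not a binding site, and the motif too was chosen with earlier results known. The Cd33 window belongs to an annotated start inside the gene, which spans chr7:43527399-43537424, and not to the gene's outer end. The stretches follow, 5′ to 3′ on the gene's strand, with the match in capitals (TTCCTC where it lies on the other strand).
Trem2, chr17:48346334-48346393, plus strand, match 40 bases before the start: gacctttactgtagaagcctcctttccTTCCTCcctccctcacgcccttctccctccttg
Clec7a, chr6:129472843-129472902, minus strand, match 96 bases before the start: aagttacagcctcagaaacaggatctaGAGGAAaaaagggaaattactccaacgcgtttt
Itgam, chr7:128062529-128062588, plus strand, first of 3 matches in its window, 84 bases before the start: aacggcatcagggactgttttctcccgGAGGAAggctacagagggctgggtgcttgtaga
Cd33, chr7:43533365-43533421, minus strand, match 226 bases before the start: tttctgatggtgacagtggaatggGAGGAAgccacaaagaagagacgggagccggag
Cd84, chr1:171839696-171839725, plus strand, match just after the start: cagtgcttggagTTCCTCtgtgactgacca
Binding of PU.1 was not measured in these samples. Spi1, the gene of PU.1, was on the panel and is described with the lineage genes.

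How the receptors responded to the occlusion in the control genotype was asked by setting the floxed tMCAO mice against the floxed shams. All 7 genes rose, by 1.69-fold for Cd33 to 5.88-fold for Lilrb4a, and for each of them all 4 tMCAO mice lay above all 4 shams. Among all 757 genes 14.1% were called higher (edgeR's quasi-likelihood test, Benjamini-Hochberg adjusted p under 0.05) and 14.5% lay wholly above the shams. The median log2 fold change of the 7 genes was 1.66, or 1.43 with Clec7a at the lower bound given below, against -0.01 over all genes tested. As the 7 genes were chosen with earlier results of these data known, these figures describe them and are no independent support. All 7 were also called without flox sham replicate 4 and flox tMCAO replicate 3, with log2 fold changes of 1.42 for Trem2, 1.96 for Tyrobp, 1.27 for Itgam, 2.39 for Lilrb4a, 0.66 for Cd33 and 1.99 for Cd84. In whole brain RNA, more cells of a type and more RNA per cell cannot be told apart.

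**Figure D1:**
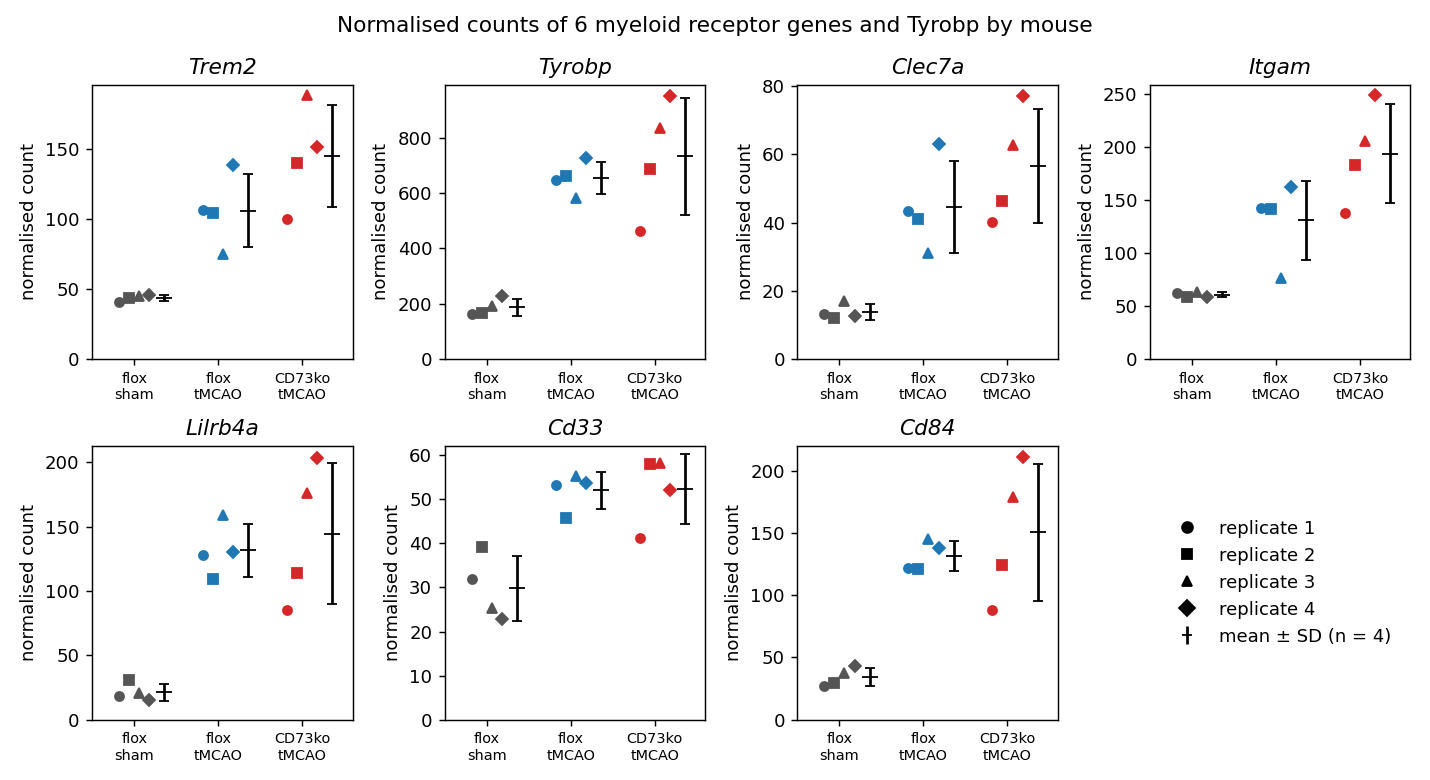
Normalised counts (vertical axes, from 0) of the 7 genes in each of the 12 mice, by group, with symbols for the replicates and bars for the mean ± SD (n = 4 mice). Every tMCAO mouse lies above every sham in each panel, while the floxed and CD73ko tMCAO mice overlap in each.

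The activating pair came first. Trem2 stood at 40.8, 43.8, 45.1 and 45.6 normalised counts in the 4 shams and at 106.4, 104.3, 74.7 and 138.7 in floxed tMCAO mice 1 to 4. The shams were tightly grouped, with a coefficient of variation of 4.97%, and the lowest tMCAO mouse, replicate 3, was still well above them. The log2 fold change was 1.28 ± 0.22 (estimate ± SE, adjusted p = 0.000713 by edgeR). Tyrobp, the adaptor, stood at 161.3, 167.8, 191.2 and 228.2 in the shams and at 647.5, 660.2, 583.7 and 726.3 after tMCAO. No tMCAO mouse came near the sham range, and replicate 3 was again the lowest. Its log2 fold change was 1.84 ± 0.19 (edgeR adjusted p = 7.29e-06).

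The adaptor rose further than its receptor within each mouse. The log2 change of Tyrobp exceeded that of Trem2 by 0.59 ± 0.24 (SD, n = 4 floxed tMCAO mice), a difference in which library scaling cancels, and by 0.26 ± 0.23 in the 4 CD73ko mice. Without flox tMCAO replicate 3 the floxed value was 0.48 ± 0.14 (n = 3). In the floxed tMCAO mice these differences, from 0.32 to 0.89, did not overlap the shams, and in the CD73ko mice, from 0.09 to 0.59, they did. TYROBP also serves other receptors, and Itgam-containing integrins are among those known to use ITAM adaptors.

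Clec7a and Itgam are the other receptors with activating roles. Clec7a had raw counts of 5 to 19 in the shams, which is near background, and 32 to 60 after tMCAO. Its normalised counts were 13.3, 12.1, 17.1 and 12.7 in the shams and 43.5, 41.0, 31.0 and 63.1 in the floxed tMCAO mice. All tMCAO mice were higher. With the shams raised to their background limits the rise was at least 2.70-fold, and edgeR gave adjusted p = 0.000867. Itgam encodes CD11b, the alpha chain of complement receptor 3, which is used to mark microglia and other myeloid cells. It stood at 62.0, 58.7, 63.1 and 58.3 normalised counts in the shams and at 142.8, 141.4, 76.6 and 161.9 after tMCAO. Floxed tMCAO replicate 3 sat just above the sham range, and the other 3 mice were far above it. The log2 fold change was 1.10 ± 0.23 (edgeR adjusted p = 0.00304), and 1.28 without that mouse.

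Lilrb4a, which encodes an ITIM-bearing receptor of the leukocyte immunoglobulin-like family, had the widest rise. It went from 18.6, 30.8, 20.7 and 15.2 normalised counts in the shams to 127.7, 109.2, 159.0 and 130.3 in the floxed tMCAO mice. The groups were far apart, and here replicate 3 was the highest of its group. Sham counts were low, with a raw count of 6 in flox sham replicate 4 against a background limit of 5.33. With the limit at the mean plus 3 SD, 3 of the 4 shams exceeded it. The log2 fold change was 2.56 ± 0.29 (edgeR adjusted p = 1.91e-05), the ninth highest of all genes tested. A near-identical paralogue lies beside this gene in the mouse, and the counts may include its transcripts.

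Cd33 encodes a sialic acid-binding lectin that is inhibitory in humans; the cytoplasmic tail of the mouse protein differs from the human one. It changed least, from 31.9, 39.2, 25.3 and 22.8 normalised counts in the shams to 53.2, 45.8, 55.3 and 53.6 in the floxed tMCAO mice. The gap between the highest sham and the lowest tMCAO mouse was smaller than the spread of the shams. The log2 fold change was 0.75 ± 0.18 (edgeR adjusted p = 0.00741). Cd84, a self-binding receptor of the SLAM family that signals through small SH2-domain adaptors, stood at 27.5, 29.8, 37.9 and 43.1 in the shams and at 121.5, 120.9, 145.4 and 137.7 after tMCAO. The tMCAO mice were close together and well above all shams, with replicate 3 highest. Its log2 fold change was 1.98 ± 0.26 (edgeR adjusted p = 5.31e-05).

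The rises were of unequal size. Among the 6 genes above background in the shams there were 15 pairs, and the difference in log2 change lay outside the sham range in all 4 floxed tMCAO mice for 9 of them and in all 4 CD73ko mice for 7. Over all pairs of the 690 panel genes above background in at least 3 shams, the shares were 27.4% and 30.5%, and the 15 pairs share their genes and mice. Lilrb4a exceeded Cd33 by 1.79 ± 0.13 and Itgam by 1.56 ± 0.67 in the floxed tMCAO mice (log2, SD, n = 4). The second of these was 1.23 without replicate 3. In the CD73ko mice Lilrb4a exceeded Cd33 by 1.86 ± 0.47 and Itgam by 1.04 ± 0.25.

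The floxed tMCAO mice also differed in which receptors were high. Replicate 3 had the lowest normalised count of the 4 mice for Trem2, Tyrobp, Clec7a and Itgam and the highest for Lilrb4a, Cd33 and Cd84. Replicate 4 had the highest for the first 4 genes and for none of the other 3. For Cd33 the lead of replicate 3 was small, at 55.3 normalised counts against 53.6 in replicate 4 and 53.2 in replicate 1. In replicate 3 Itgam was 0.33 and Lilrb4a 2.89 above the sham mean on the log2 scale, a gap of 2.55, while the gaps of the other 3 mice were 1.14 to 1.35. The microglia markers were low in replicate 3, as described, and their part in these values was not tested. Among the CD73ko mice replicate 1 was lowest for all 7 genes, and replicate 4 was highest for 5 and replicate 3 for Trem2 and Cd33. For Cd33 replicate 4 had 52.0 normalised counts against 57.9 and 58.1 in replicates 2 and 3, a small gap (raw counts of 56 against 55 and 62).

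**Figure D2:**
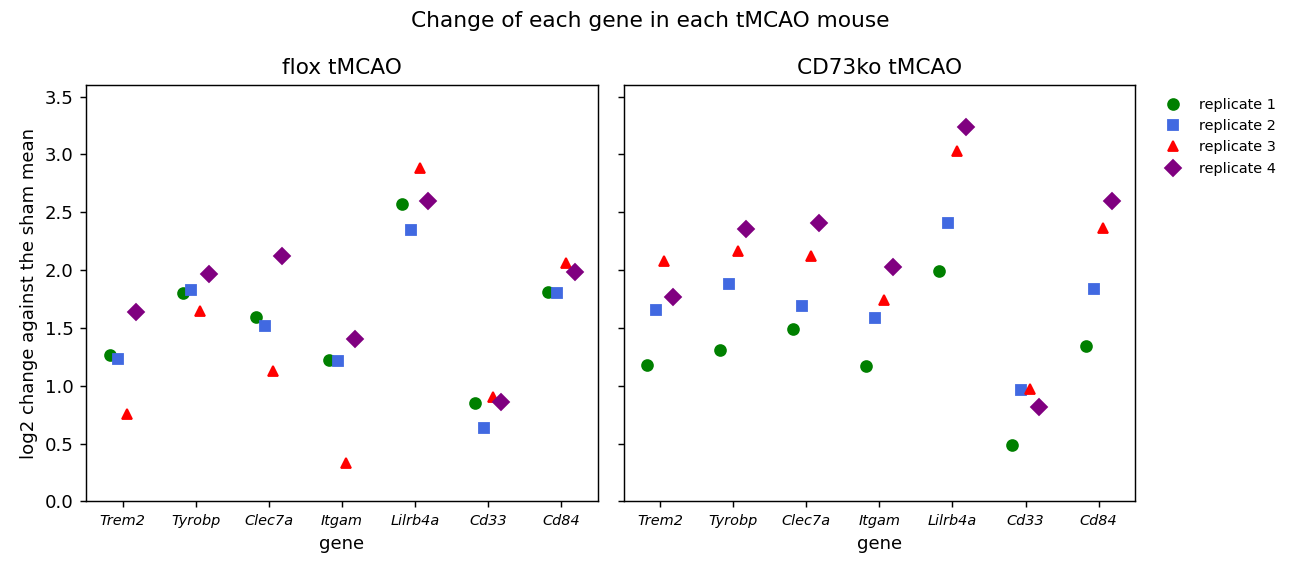
Log2 change of each gene against the sham mean (vertical axis) in the 4 floxed tMCAO mice (left) and the 4 CD73ko tMCAO mice (right), with a colour and symbol for each replicate. Replicate 3 of the floxed mice is lowest for Trem2, Tyrobp, Clec7a and Itgam and highest for Lilrb4a, Cd33 and Cd84, while replicate 1 of the CD73ko mice is lowest for all 7 genes.

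Whether the receptors differed between the genotypes after tMCAO was asked by setting the CD73ko against the floxed tMCAO mice. None of the 7 genes passed, nor did any of the 757 (0% called) by edgeR, by DESeq2 or by limma. An unadjusted p under 0.05 was reached by 45 genes that were higher (5.94%) and 2 that were lower (0.264%) in CD73ko mice, and among the 7 by Itgam and Trem2. The estimates of all 7 genes were positive, with a median log2 fold change of 0.20 against 0.03 over all genes, of which 59.7% were positive. The 7 genes were counted in the same mice, so their estimates are not independent.

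The widest estimates were those of Itgam and Trem2. Itgam stood at 137.8, 183.2, 205.2 and 248.9 normalised counts in CD73ko mice 1 to 4, so 3 of the 4 were above all floxed tMCAO mice and the lowest was within their range. Its log2 fold change was 0.57 (95% interval 0.14 to 1.00, edgeR adjusted p = 0.747), and 0.38 without flox tMCAO replicate 3 (edgeR adjusted p = 0.994). Trem2 stood at 100.3, 140.0, 188.4 and 151.4 in the CD73ko mice. Again 3 mice were above the floxed range and replicate 1 was inside it. The log2 fold change was 0.45 (95% interval 0.05 to 0.86, edgeR adjusted p = 0.747), and 0.32 without flox tMCAO replicate 3 (edgeR adjusted p = 0.994).

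For the other 5 genes the interval of the genotype difference covered 0. Tyrobp ranged from 461.2 to 951.0 normalised counts in the CD73ko mice, on both sides of the floxed tMCAO mice, with a log2 fold change of 0.16 (95% interval -0.19 to 0.52) that was 0.01 without CD73ko replicate 4 and 0.31 without CD73ko replicate 1. Clec7a ranged from 40.3 to 77.1, with an estimate of 0.35 (-0.14 to 0.84) that was 0.17 without CD73ko replicate 4 and 0.56 without flox tMCAO replicate 4. Lilrb4a ranged from 85.3 to 203.4, with an estimate of 0.14 (-0.35 to 0.63) that was -0.07 without CD73ko replicate 4. Cd84 ranged from 88.1 to 210.8, with an estimate of 0.20 (-0.25 to 0.65) that was -0.01 without that mouse. Cd33 ranged from 41.2 to 58.1 and had an estimate of 0.01 (-0.35 to 0.36), an interval of 0.787-fold to 1.28-fold. Without flox tMCAO replicate 3 the estimates were 0.11 for Tyrobp, 0.22 for Clec7a, 0.24 for Lilrb4a, 0.25 for Cd84 and 0.04 for Cd33.

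The CD73ko mice were more spread than the floxed tMCAO mice for 3 of these genes in particular. The coefficient of variation was 36.5% against 9.26% for Cd84, 28.8% against 8.93% for Tyrobp and 37.7% against 15.6% for Lilrb4a. It was also higher for Cd33 (15.1% against 8.07%) and similar in both groups for Trem2 (25.0% against 24.7%) and Clec7a (29.4% against 30.1%). For Itgam it was lower in the CD73ko mice (23.9% against 28.5%). Without flox tMCAO replicate 3 the floxed values were 7.51% for Cd84, 6.24% for Tyrobp, 9.40% for Lilrb4a and 16.5% for Trem2. They were 8.61% for Cd33, 24.6% for Clec7a and 7.69% for Itgam. This difference in spread was not tested. CD73ko replicate 1, the lowest mouse throughout, also had the smallest summed microglia markers of its group (4614 against 5250 to 6369) and a summed count of the measured monocyte and macrophage markers of 166.8 against 363.2 to 662.2. The part of these cells in the spread was not tested.

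**Figure D3:**
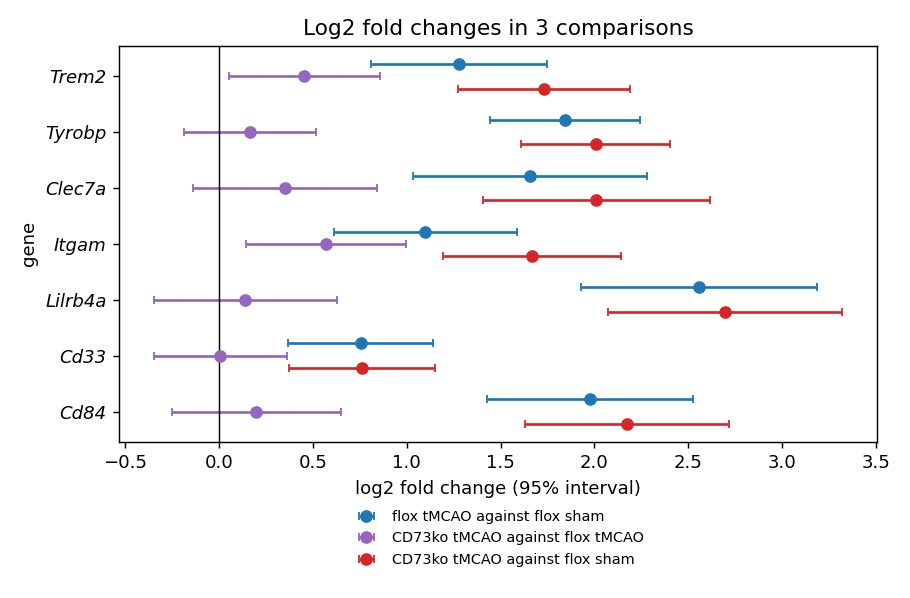
Log2 fold changes of the 7 genes (horizontal axis) with their 95% intervals in the 3 comparisons, from one fit over 12 mice. Both comparisons with the shams lie above 0 for all 7 genes, and the difference between the genotypes lies between 0.01 and 0.57.

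The third comparison set CD73ko mice after tMCAO against floxed shams, so surgery and genotype both differ, and it shares the shams with the first. All 7 genes rose (16.1% of the 757 were called higher), and in all 7 the groups did not overlap (16.9% of genes lay wholly above the shams). The log2 fold changes ± SE were 1.73 ± 0.21 for Trem2, 2.01 ± 0.19 for Tyrobp, 1.67 ± 0.22 for Itgam, 2.70 ± 0.29 for Lilrb4a, 0.76 ± 0.18 for Cd33 and 2.17 ± 0.25 for Cd84. Clec7a was higher by at least 3.41-fold, with the shams raised to background. The largest edgeR adjusted p of the 7 was 0.00659, that of Cd33. Without flox sham replicate 4 and flox tMCAO replicate 3 the values ran from 0.70 for Cd33 to 2.63 for Lilrb4a, and all 7 were called. Side by side with the floxed tMCAO mice, the order of the 7 genes kept Lilrb4a at the top and Cd33 at the bottom.

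The rises were next set against Csf1r, which encodes the receptor of colony-stimulating factor 1 and is carried by microglia and macrophages generally. Clec7a was left out here, since its sham values rest on the background. Csf1r itself rose by 0.64 ± 0.12 on the log2 scale (estimate ± SE, edgeR adjusted p = 0.00177). Lilrb4a exceeded the change of Csf1r by 1.96 ± 0.37 in floxed tMCAO mice and 1.82 ± 0.44 in CD73ko mice (log2, SD, n = 4 each), Cd84 by 1.27 ± 0.28 and 1.18 ± 0.43, Tyrobp by 1.17 ± 0.14 and 1.07 ± 0.32, and Trem2 by 0.58 ± 0.16 and 0.82 ± 0.30. For these 4 genes all mice of both tMCAO groups lay above all shams. Itgam exceeded it by 0.40 ± 0.33 in floxed mice, where replicate 3 was at -0.07 and within the sham range, and by 0.78 ± 0.21 in CD73ko mice, which lay above the shams. Without replicate 3 the floxed mice did too, at 0.56 ± 0.13 (n = 3). Cd33 overlapped the shams in both groups, at 0.17 ± 0.25 and -0.04 ± 0.17, and at 0.06 ± 0.16 in the floxed mice without replicate 3. The other 4 genes without that mouse were at 1.79 (Lilrb4a), 1.14 (Cd84), 1.14 (Tyrobp) and 0.66 (Trem2), still above the shams.

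Against Aif1, another gene of microglia and macrophages (it encodes IBA1), Lilrb4a and Tyrobp stood apart from the shams. Aif1 itself was only 0.12 above the sham mean in floxed tMCAO replicate 3 (log2). The excess over its change was, for Lilrb4a, 1.55 ± 0.82 and 1.26 ± 0.32 and, for Tyrobp, 0.76 ± 0.55 and 0.52 ± 0.18 (floxed and CD73ko tMCAO mice, log2, SD, n = 4 each). Trem2 (0.17 ± 0.33 and 0.26 ± 0.14) and Itgam (-0.01 ± 0.23 and 0.22 ± 0.13) overlapped the shams. So did Cd33 (-0.24 ± 0.70 and -0.60 ± 0.15) and Cd84 (0.86 ± 0.74 and 0.63 ± 0.30). Without replicate 3 the floxed values were 1.15 for Lilrb4a, 0.50 for Tyrobp, 0.02 for Trem2, -0.08 for Itgam, -0.58 for Cd33 and 0.50 for Cd84, with the same genes above and overlapping the shams.

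**Figure D4:**
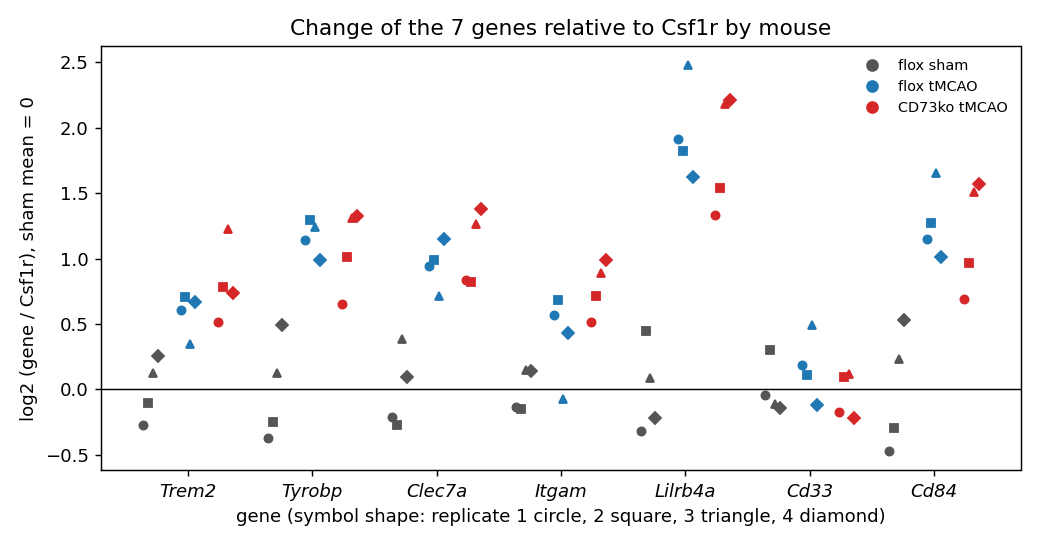
Log2 ratio of each gene to Csf1r (vertical axis, mean of the shams at 0) in each of the 12 mice, coloured by group, with symbols for the replicates. Lilrb4a lies highest, and the tMCAO mice overlap the shams for Cd33. The sham values of Clec7a rest on the background.

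Genes with the most similar profile were sought among the other endogenous genes, by the root mean square difference of the log2 change over the 12 mice. Trem2 was nearest to Grn, the progranulin gene, at 0.180 log2 units, and to Ctss, the cathepsin S gene, at 0.215. Tyrobp was nearest to Vim, which encodes the filament protein vimentin, at 0.135, and to C1qb at 0.182. Clec7a was nearest to the complement genes C1qa (0.193) and C1qb (0.194), and Itgam to Olfml3 (0.210) and Grn (0.210). Lilrb4a was nearest to Cd68, a lysosomal glycoprotein gene of phagocytes, at 0.234, and to C3ar1, the C3a receptor gene, at 0.271. Cd84 was nearest to Vim (0.180) and to the astrocyte filament gene Gfap (0.214), and Cd33 to F11r (0.188) and Csf1r (0.211). Within the 7, Trem2 and Itgam were each other's nearest member (0.194), as were Tyrobp and Cd84 (0.158). The median gene lay 0.721 from Cd33 and 2.18 from Lilrb4a.

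Other genes of the same pathways were few on the panel, and none of those named here passed the threshold between the genotypes. Of the 2 measured TREM2 ligands, Lgals3, the galectin-3 gene, rose by 3.65 ± 0.33 in floxed mice, and Apoe, the apolipoprotein E gene, was at 0.11 ± 0.09 (log2 ± SE, edgeR adjusted p = 0.446). Of 21 ITAM and integrin signalling genes 2 were measured and neither passed, Prkcd at 0.20 ± 0.10 and Grb2 at 0.02 ± 0.05. Syk itself was not analysed here. Of 5 genes that act downstream of ITIM or SLAM receptors 2 were measured. Ptpn11, which encodes the phosphatase SHP-2, was at 0.20 ± 0.08 (edgeR adjusted p = 0.0897). It had 1501.8 normalised counts in flox tMCAO replicate 3, against 1135.4, 1099.0 and 1214.0 in replicates 1, 2 and 4. Sh2d1a, the gene of the SLAM adaptor SAP, was not above background.

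Of 5 further ITAM- or ITIM-linked receptors measured, 2 rose in floxed mice. Fcgr1, the gene of the high-affinity IgG receptor, rose by 1.68 ± 0.21 on the log2 scale, from 28.0 to 38.0 normalised counts in the shams to 67.9 to 127.2, with replicate 3 lowest. Fcgr4, which encodes another activating IgG receptor, was at least 2.78-fold higher after tMCAO, and replicate 3 was the highest of its group at 47.5. Siglech, a TYROBP-coupled lectin gene of microglia, did not pass (0.09 ± 0.16, edgeR adjusted p = 0.742), and its values of 82.4 to 148.1 after tMCAO overlapped the 100.7 to 149.6 of the shams. Cd200r1 was not above background, and neither was Itgax, the only other integrin gene measured. Cd244a, the only other SLAM family gene measured, did not pass (edgeR adjusted p = 0.546). It was above background in 2 of the 4 shams, so its fold is a lower bound, of 1.08. The median log2 fold change of the 5 receptors was 0.09, against -0.01 over all genes. Between the genotypes after tMCAO none of the 5, the last of which was Sirpa, passed, but all 5 estimates were positive (59.7% over all genes). Their median was 0.54, against 0.03 over all genes, but it counts Cd200r1, at 0.71 ± 0.34 and not above background. Fcgr1 was at 0.54 ± 0.17 (edgeR adjusted p = 0.747), Fcgr4 at 0.60 ± 0.27 (edgeR adjusted p = 0.785) and Siglech at 0.36 ± 0.16 (edgeR adjusted p = 0.785). In floxed tMCAO replicate 3 Fcgr1 (67.9) and Siglech (82.4) were the lowest of the group and Fcgr4 the highest. Estimates without that mouse are not given for these genes.

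All 3 measured lineage genes rose. Spi1, which encodes PU.1, rose by 1.20 ± 0.23 in floxed mice (log2 ± SE, edgeR adjusted p = 0.00143), from 29.8 to 53.2 normalised counts in the shams to 65.0 to 105.1 after tMCAO, with replicate 3 lowest. Irf8, another transcription factor gene of the lineage, rose by 1.12 ± 0.27 from counts near background. With Csf1r their median was 1.12.

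Some of the measured markers of cells that carry these receptors rose with them. Of 11 microglia markers, all above background, 7 were called higher in floxed tMCAO mice and none lower, and 10 estimates were positive. Among all 757 genes 14.1% were called higher. The summed normalised counts of the 11 were 2315 to 2700 in the shams, 3466 to 6048 in floxed and 4614 to 6369 in CD73ko tMCAO mice. The homeostatic markers P2ry12, Tmem119, Sall1 and Siglech were not among the 7. Of 13 monocyte and macrophage markers 2 were measured: Lyz2, a lysozyme gene, rose by 2.65 ± 0.40 (log2 ± SE) and Cd163 was at 0.01 ± 0.28. Their sum was 61.5 to 91.3 in the shams, 256.0 to 433.8 in floxed and 166.8 to 662.2 in CD73ko tMCAO mice. Of 12 neutrophil markers only Csf3r was measured (20.3 to 30.1, 23.3 to 47.9 and 30.6 to 52.5 in the same order), and it did not pass. The single measured dendritic cell marker, Itgax, and 8 of 11 lymphocyte and NK cell markers were not above background. No measured marker was at 0 counts in a library. The part of infiltrating cells in the rises of the 7 genes was not tested, and Ccr2 and Ly6c2, which would mark monocytes, were not analysed here.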

How the data were processed

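The authors deposited raw counts of 770 genes and 14 control probes in 12 mice. The sources used here do not name the software that made them. In 2 further tables normalised by the authors, 11 samples each carry running numbers that match no label, and these tables were not used. The 13 housekeeping genes (those absent from the normalised tables) and the control probes stayed out of the tests. Groups and replicate numbers came from the titles; each library is an individual mouse.

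Counts were tested with edgeR 4.0.16 (R 4.3.3; quasi-likelihood F test, TMM scaling, one coefficient per group over 12 mice), with Benjamini-Hochberg adjustment over 757 genes at 0.05. SEs were derived from the F statistic, and 95% intervals use its 14.4 total degrees of freedom (residual plus prior). For normalised counts, each library was scaled to the mean of the effective library sizes; log2 changes of single mice use the normalised count plus 1. A fold against shams of which fewer than 3 exceeded background is a lower bound, with each sham raised to its background limit. The depth and the 4 mice per group limit the precision.

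The members, gene lists and motif were chosen with earlier results of these data known. Named genes were the 7 members, the 2 most similar genes of each, and up to 4 measured genes of each list with the smallest p in the first comparison; marker genes and Aif1 stand outside that rule. Alternatives were other scalings, filters on low counts, DESeq2 1.42.0, limma 3.58.1, background subtraction, a block on the replicate number and leaving out mice. The steps were tested on simulated data. Symbols of 765 of 770 genes were found in the RefSeq gene table of GRCm38.p6.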

Additional observations from a re-analysis of the deposited data

Results flagged for a closer look

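Among 69 groups of 4 values tested for a sample far from the others, where chance flags about 1 in 20, 2 stood out, both in the library flox sham replicate 4. Its total count was 293589, where the other shams had 782911 to 828394. Irf8 had 15.2 normalised counts in it and 12.1 to 12.6 in the other shams. None of the 21 groups of values of the 7 genes stood out.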

How the results depend on the processing

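All 7 genes stayed higher and past the threshold against the shams under all 20 alternatives of the first and all 20 of the third comparison; Clec7a moved furthest, to a log2 fold change of 2.39 in floxed mice with the negative control mean subtracted. No gene of the panel passed between the genotypes under any of 20 alternatives. The estimate of Cd33 between the genotypes turned negative with DESeq2's size factors (-0.0118), housekeeping (-0.0125) or median scaling (-0.0176), only genes above background (-0.0191), only genes with a mean count of 20 or more (-0.0109), DESeq2 (-0.0119), limma with a pseudocount of 1 (-0.000302), only the 2 groups compared (-0.0150) or background subtracted (-0.0145). With single mice left out, Cd33 ranged from -0.0693 to 0.0798, Lilrb4a from -0.0716 to 0.300 and Cd84 from -0.00864 to 0.362.

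In the first comparison 167 genes passed, 125 to 206 with one mouse left out; the split of 107 higher and 60 lower was 89 and 99 with housekeeping and 97 and 105 with median scaling. In the third 172 passed, 122 higher and 50 lower, against 101 and 117 with housekeeping and 104 and 118 with median scaling; the number was 110 to 229 with one mouse left out, lowest without CD73ko tMCAO replicate 3, and 267 without flox sham replicate 4 and flox tMCAO replicate 3, a setting chosen after seeing the data. The cause was not tested. With a pseudocount of 10 the excess of Lilrb4a over Itgam in CD73ko mice was 0.753 in place of 1.04.

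Same-numbered mice of different groups showed no shared deviation (correlations of -0.25 to 0.17 across genes, against -0.28 to 0.22 for other numbers). The mice were therefore treated as unpaired, though such correlations cannot show that no mice were handled together. With a replicate block 145, 0 and 146 genes passed in the 3 comparisons, and the 7 genes kept their calls.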
